A study of Mus musculus with 6 samples.

Results

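The 33 genes described here encode the precursors of hypothalamic neuropeptides and related secreted peptides, from galanin and neurotensin to the endothelins, with 1 exception. Crhbp encodes a secreted protein that binds and buffers corticotropin-releasing hormone, and it is counted among the precursors below. The genes were chosen by name from the deposited table of 50559 genes, and all 33 had a row in it. A total of 30 reached 10 counts summed over the 6 libraries and are described. The other 3, Galp (galanin-like peptide), Gcg (proglucagon) and Ucn (urocortin), had 9, 7 and 4 counts in all. Of the 30, 27 passed the filter on low counts and were tested between the genotypes.

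Hypothalamus was compared between SRC1 KO mice and wild-type (WT) mice, with 3 libraries of total RNA in each group. SRC-1, steroid receptor coactivator 1, is encoded by Ncoa1 and helps nuclear hormone receptors to activate transcription. The labels give no age, sex, strain, cohort or allele, and do not say which cells lost the gene or that each library is a separate animal. The p-values therefore measure the spread between these libraries, which may be technical.

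Neuropeptides are cut from larger precursors inside secretory granules and act on receptors that are mostly coupled to G proteins. Each precursor is made by a limited set of neurons, often in 1 or a few hypothalamic nuclei, so that its RNA in a whole dissection depends on how many of those cells were taken and on how much each one makes. Those contributions cannot be told apart in bulk RNA. Some of the peptides here also come from cells other than neurons, such as endothelin-1 from endothelium.

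Library totals ran from 36613507 to 46755553 counts. Ncoa1 had 1692, 1478 and 1766 counts in SRC1 KO, against 5180, 4630 and 5406 in WT, so every library matched its label. The tissue label was checked with Nkx2-1, a transcription factor of the hypothalamus, which stood between 20.9 and 35.1 CPM (TMM-normalised counts, scaled to the library size) in the 6 libraries. The 10 hypothalamic regional factors, Nkx2-1 among them, summed to 136, 141 and 196 CPM in SRC1 KO, against 254, 173 and 183 CPM in WT, with a median log2 fold change of -0.217. None of the 10 passed the threshold used below, and 3 had an unadjusted p under 0.05, with 2 higher and 1 lower. That was 30.0% of the list, against 13.0% of all genes. Genes of other marker lists did pass. Of 10 tanycyte and ependymal genes 6 fell and none rose, with a summed level of 76.6 to 95.1 CPM in SRC1 KO and 198 to 232 CPM in WT. Of 8 oligodendrocyte genes 5 rose and none fell, with sums of 6161 to 8279 CPM in SRC1 KO and 3761 to 4832 CPM in WT. The meningeal fibroblast sum was 56.0 to 61.9 CPM in SRC1 KO and 63.8 to 256 CPM in WT, with 1 of 8 genes lower. Of 8 tested pituitary genes 1 was lower past the threshold. At an unadjusted p under 0.05, 5 of those 8 were lower and 0 higher, or 62.5% against 13.0% of all genes. Their median log2 fold change was -1.628, though the pituitary sums overlapped, at 23.2 to 42.9 CPM in SRC1 KO and 25.1 to 46.6 CPM in WT. Of 7 tested genes of cortex, hippocampus and amygdala 1 was higher, Tbr1. Of 8 general neuron genes 0 passed, but all 8 had positive fold changes. An unadjusted p under 0.05 was found for 2 of these neuron genes, or 25.0% against 13.0% of all genes. Their sums were 5322 to 5668 CPM in SRC1 KO and 4736 to 5268 CPM in WT. The part of these differences in the values below was not tested.

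No precursor changed between the genotypes by the test across all genes. In edgeR's quasi-likelihood test with Benjamini-Hochberg adjustment over all 20257 tested genes, 0 of the 27 precursors had an adjusted p under 0.05, where 0.834% of all genes tested did, 0.592% of them lower and 0.242% higher in SRC1 KO. The count was also 0 of 27 in DESeq2, which gave no adjusted p for 1 of them and called 4.05% of all genes, and 0 of 27 in limma-voom, both unweighted (0.508% of all genes) and weighted by sample quality (1.98%). At an unadjusted p under 0.05 there were 7 precursors, or 25.9%, against 13.0% of all genes. These were Edn1, Penk, Nmb, Prok2, Nmu and Npvf, with lower values in SRC1 KO, and Apln, with a higher one. The 6 lower ones were 22.2% of the 27, against 7.21% of all genes, while the 1 higher one stands beside 5.75% of all genes.

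Most fold changes pointed down without passing. Of the 27, 21 had a negative log2 fold change of SRC1 KO over WT, or 77.8%, against 48.9% of all tested genes, and their median was -0.207 against 0.004 over all tested genes. The groups did not overlap in 5 precursors, all lower in SRC1 KO, which is 18.5% of the 27 against 9.03% of all genes. None stood wholly higher in SRC1 KO, as 8.58% of all genes did. Precursors expressed in the same dissected nuclei share cells and libraries, so these counts do not come from independent genes.

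**Figure D1:**
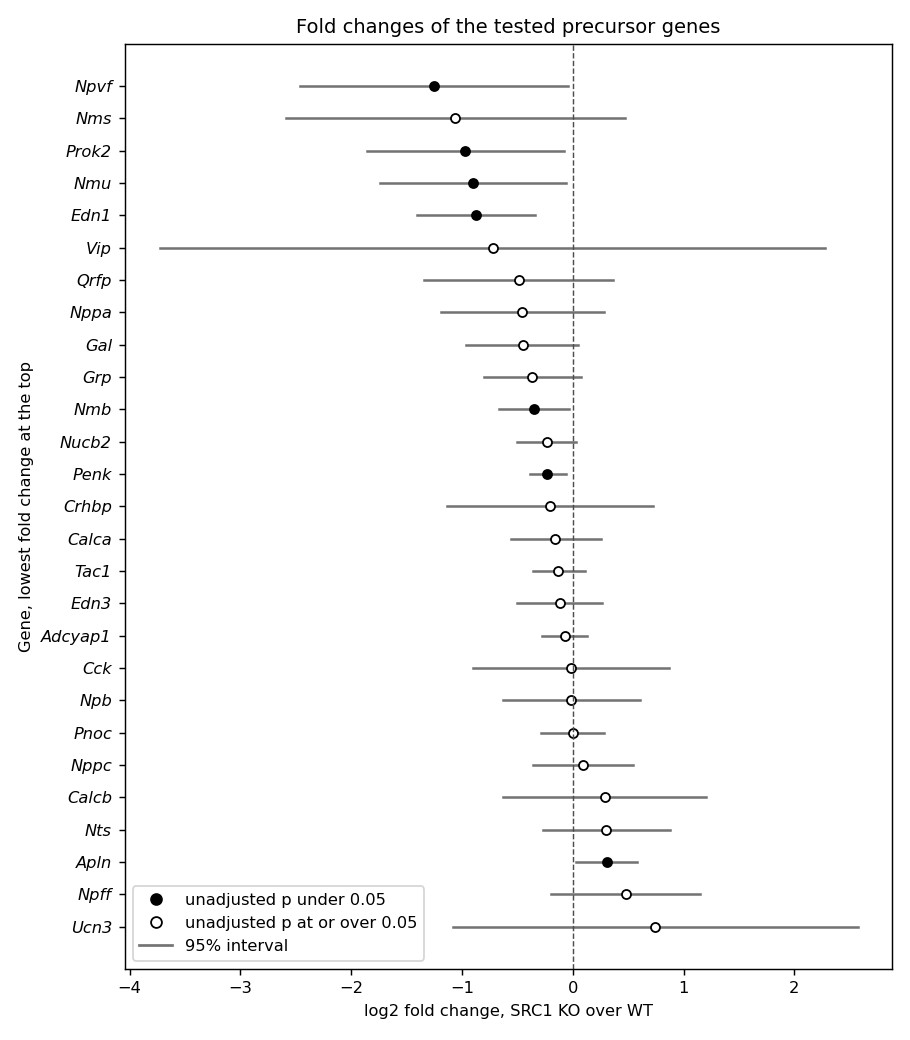
Log2 fold change of SRC1 KO over WT for the 27 tested precursors (points) with 95% intervals from edgeR (lines), filled where the unadjusted p was under 0.05. The values run from -1.25 for Npvf to 0.74 for Ucn3, 21 of the 27 are negative, and the interval of Vip is the widest shown.

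Levels were compared between genes as TPM, which scales counts by the exon length of each gene as well as by the library. Penk, the precursor of the enkephalin opioids, averaged 171 ± 9.39 TPM in SRC1 KO and 205 ± 1.66 TPM in WT (SD, n = 3 each) and was the most abundant. Tac1, which gives substance P and neurokinin A, followed with 172 ± 22.1 TPM in SRC1 KO and 191 ± 19.8 TPM in WT. Galanin (Gal) had 117 ± 26.7 TPM in SRC1 KO and 164 ± 25.3 TPM in WT, and neurotensin (Nts) 76.9 ± 15.0 and 63.6 ± 17.3 TPM in the same groups. Next in the order came Adcyap1, Nucb2, Pnoc and Npvf, at 57.3, 49.6, 28.5 and 25.0 TPM over the 6 libraries. Over all 6 libraries 13 precursors averaged over 10 TPM, and 4 of the 30 averaged under 1 TPM, down to 0.338 TPM for Npw, neuropeptide W.

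**Figure D2:**
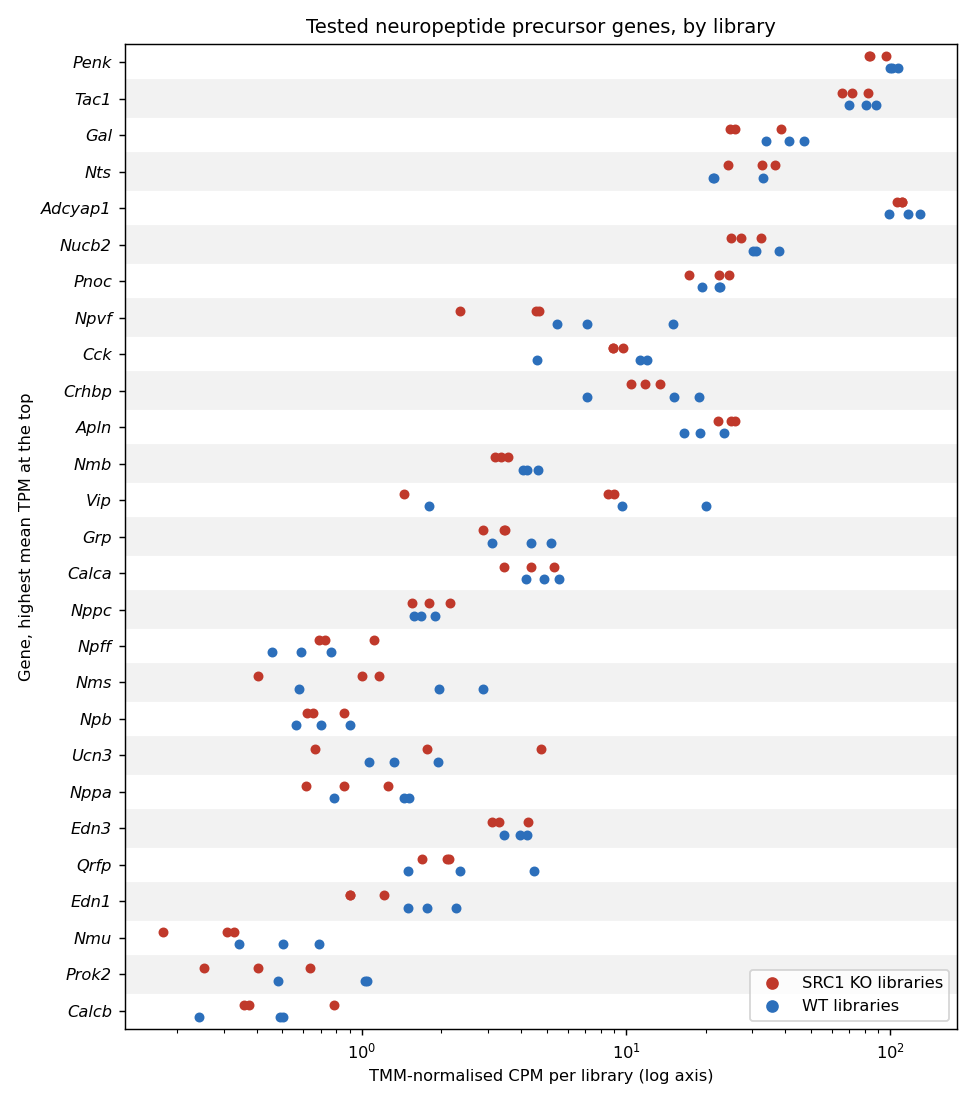
TMM-normalised CPM of the 27 tested precursors in each SRC1 KO library (red) and each WT library (blue), on a log axis, with genes ordered by mean TPM. The groups lie apart for Penk, Npvf, Nmb, Edn1 and Nmu, and the libraries of one group are spread most widely for Vip.

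The opioid family held the precursor with the steadiest difference among the abundant ones. Penk (chromosome 4, 4133536 to 4138815, minus strand, GRCm39) had 83.8, 83.0 and 96.2 CPM in SRC1 KO, against 101, 99.9 and 107 CPM in WT. Every SRC1 KO library lay below every WT library, by a small margin for SRC1 KO 3. Its log2 fold change of -0.23 ± 0.074 (SE) did not pass (adjusted p 0.204), and it lay between -0.30 and -0.19 with any 1 library left out. Pnoc, the precursor of nociceptin, averaged 21.5 ± 3.75 CPM in SRC1 KO and 21.5 ± 1.87 CPM in WT (SD, n = 3 each), and its 95% interval ran from -0.29 to 0.28 on the log2 scale. Penk is also abundant in striatum, and the striatal list summed to 214 to 247 CPM in SRC1 KO and 237 to 254 CPM in WT. Of its 9 genes 0 passed the threshold and 4 had an unadjusted p under 0.05, with 3 lower and 1 higher in SRC1 KO. That was 44.4% of the list, against 13.0% of all genes. The share of striatal tissue in Penk was not tested.

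Galanin and neurotensin, which act on feeding circuits and are often made by the same lateral hypothalamic neurons, did not pass. Gal had 24.8, 25.9 and 38.6 CPM in SRC1 KO, against 47.0, 33.9 and 41.5 CPM in WT. The groups overlapped through SRC1 KO 3, which lay above WT 2. Its log2 fold change was -0.45 ± 0.21 with an adjusted p of 0.446. With any 1 library left out it ran from -0.69 (adjusted p 0.0647, without SRC1 KO 3) to -0.34, with adjusted p up to 0.824. Nts had 36.5, 24.3 and 32.7 CPM in SRC1 KO, against 32.9, 21.3 and 21.5 CPM in WT, so the highest WT library stood among the SRC1 KO libraries. The log2 fold change of Nts was 0.30 ± 0.23 (adjusted p 0.698). Tac1 had 65.5, 82.0 and 71.3 CPM in SRC1 KO, against 69.6, 81.0 and 88.4 CPM in WT, with a log2 fold change of -0.13 ± 0.11 (adjusted p 0.712) and groups that overlapped.

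The groups also overlapped in Adcyap1 and Nucb2. Adcyap1 encodes PACAP, a peptide of the ventromedial nucleus among other sites, and it had 106, 111 and 111 CPM in SRC1 KO, against 99.1, 117 and 129 CPM in WT. Its 95% interval of -0.28 to 0.13 on the log2 scale was narrower than that of any other tested precursor but Penk. Nucb2, the precursor of the satiety peptide nesfatin-1, had 24.9, 27.2 and 32.3 CPM in SRC1 KO, against 31.1, 30.1 and 38.0 CPM in WT. SRC1 KO 3 lay within the range of WT, and the log2 fold change was -0.23 ± 0.12 (adjusted p 0.466).

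A different pattern appeared in Vip, Nms and Prok2, which differed by 2.19-fold or more between the highest and lowest library of each genotype. All 3 are peptides of the suprachiasmatic nucleus, the circadian pacemaker above the optic chiasm, where vasoactive intestinal peptide (Vip) keeps the clock neurons in step, neuromedin S (Nms) marks many of them and prokineticin 2 (Prok2) carries timing signals out of the nucleus. The 3 were set side by side after their values were seen. The 250 bases before each start site are shown, from RefSeq on GRCm38.p6, an earlier build than that of the table. Capitals mark TGACG, the core of the cAMP response element, and CACGTG, the E-box bound by clock factors, on either strand.
Vip: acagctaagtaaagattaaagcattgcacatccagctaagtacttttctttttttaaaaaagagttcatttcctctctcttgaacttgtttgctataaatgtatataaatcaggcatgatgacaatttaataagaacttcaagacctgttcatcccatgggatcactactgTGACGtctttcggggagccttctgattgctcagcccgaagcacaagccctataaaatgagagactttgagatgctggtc
Nms: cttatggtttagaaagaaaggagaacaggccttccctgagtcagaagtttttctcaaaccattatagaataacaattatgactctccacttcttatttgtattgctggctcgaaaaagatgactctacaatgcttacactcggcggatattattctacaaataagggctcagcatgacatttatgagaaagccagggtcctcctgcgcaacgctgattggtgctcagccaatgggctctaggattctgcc
Prok2: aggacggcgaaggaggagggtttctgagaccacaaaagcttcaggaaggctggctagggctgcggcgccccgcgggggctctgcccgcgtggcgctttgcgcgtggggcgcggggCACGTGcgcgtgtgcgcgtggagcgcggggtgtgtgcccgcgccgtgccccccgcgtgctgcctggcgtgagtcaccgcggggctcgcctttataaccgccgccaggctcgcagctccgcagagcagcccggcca
The Vip window (chr10:5638968-5639217, plus strand) holds 1 TGACG that begins 79 bases before the start, and no E-box. The Prok2 window (chr6:99726393-99726642, minus strand) holds 1 E-box that begins 135 bases before the start and no TGACG. Neither motif occurs in the Nms window (chr1:38938899-38939148, plus strand), so the 3 windows share none of the motifs searched. TGACG occurs in 17.8% of the 32851 RefSeq windows of this length and CACGTG in 6.02%. The full element TGACGTCA, which contains TGACG, occurs in 1.55% and in none of these 3.

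Vip (chromosome 10, 5589131 to 5597617, plus strand, GRCm39) had 9.01, 1.44 and 8.57 CPM in SRC1 KO, against 20.1, 9.67 and 1.80 CPM in WT. Its highest library was thus 6.27 times its lowest within SRC1 KO and 11.1 times within WT. Nms had 1.00, 0.403 and 1.16 CPM in SRC1 KO, against 2.87, 1.95 and 0.578 CPM in WT. Prok2 had 0.405, 0.252 and 0.635 CPM in SRC1 KO, against 1.05, 1.03 and 0.481 CPM in WT. In all 3 genes SRC1 KO 2 was the lowest of its group and WT 3 the lowest of its group, while WT 1 was the highest of all 6 libraries. Within SRC1 KO, Vip was highest in SRC1 KO 1, whereas Nms and Prok2 were highest in SRC1 KO 3. Over the 27 tested precursors, SRC1 KO 2 was the lowest of its group for 9 and WT 3 for 7.

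The genotype comparison of these genes was accordingly wide. The log2 fold change of Vip was -0.72 ± 1.1 (SE, adjusted p 0.872) with a 95% interval from -3.73 to 2.28, and it turned to 0.15 without WT 1. For Nms it was -1.06 ± 0.63 (adjusted p 0.579), and for Prok2 -0.97 ± 0.40 (adjusted p 0.337). The suprachiasmatic list of 7 other genes, which includes the VIP receptor Vipr2, had its lowest sums in the same libraries, with 233, 218 and 245 CPM in SRC1 KO and 261, 238 and 204 CPM in WT, a much smaller range than that of Vip. Of these 7 genes 0 passed and 1 had an unadjusted p under 0.05, or 14.3% against 13.0% of all genes. Six6, a transcription factor of the suprachiasmatic and ventral hypothalamus, had 4.31, 4.03 and 8.0 CPM in SRC1 KO, against 18.1, 10.1 and 8.59 CPM in WT, again lowest in SRC1 KO 2 and WT 3 within each group, and was singled out after its values were seen. By contrast Lhx1, another factor of the nucleus, was highest in SRC1 KO 2, with 16.5, 21.1 and 19.7 CPM in SRC1 KO and 10.2, 18.8 and 14.8 CPM in WT. Syt10, like Lhx1 a gene of the list, had 34.9, 37.2 and 54.7 CPM in SRC1 KO, against 78.0, 54.5 and 48.3 CPM in WT. Within each group Syt10 was lowest in SRC1 KO 1 and in WT 3. The part of dissection in these values was not tested, and the labels give no time of day for any library.

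**Figure D3:**
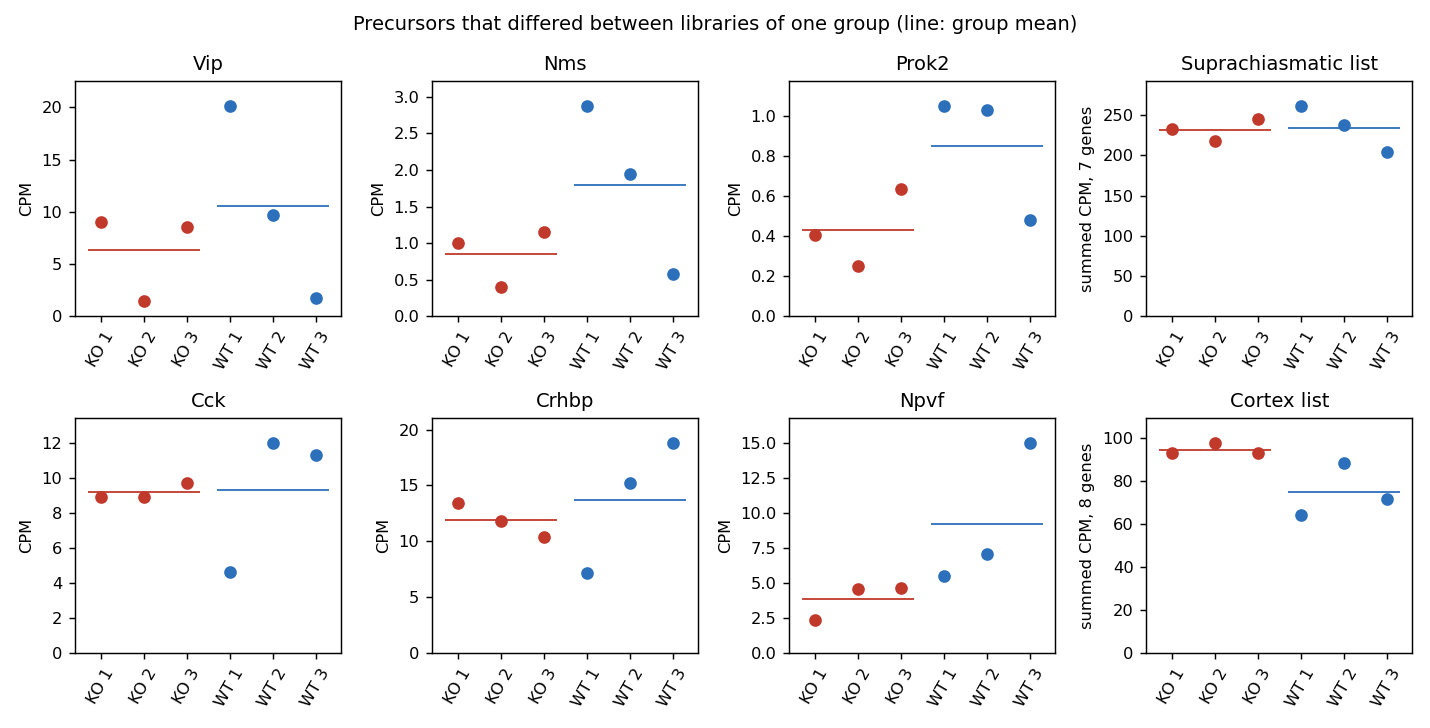
CPM of 6 precursors and the summed CPM of 2 marker lists in each SRC1 KO library (red, left) and each WT library (blue, right), with lines at the group means and all axes from 0. Vip, Nms and Prok2 are lowest in KO 2 and WT 3 within their groups, Cck and Crhbp are lowest in WT 1, and Npvf is highest in WT 3.

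Within-group spread of this kind was common among the precursors. On log2 CPM the pooled within-group SD had a median of 0.3 over the 27, against 0.144 over all tested genes, and 10 of the 27 lay above 0.464, the 90th percentile of all tested genes. Vip (1.63), Ucn3 (1.02), Nms (0.982), Npvf (0.657) and Prok2 (0.597) led that order. Prok2 and Nms had as few as 10 and 16 counts in a library, whereas Cck (0.546) and Crhbp (0.532) had 188 or more in every library. Penk (0.0924) and Nmb (0.0881) were at the other end.

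**Figure D4:**
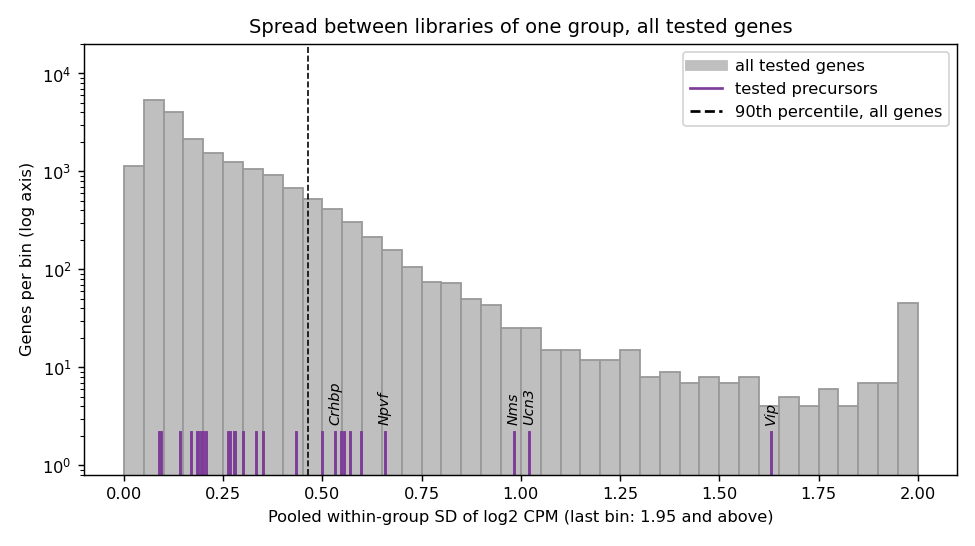
Pooled within-group SD of log2 CPM for all 20257 tested genes (grey bars, log axis of genes per bin) and for the 27 tested precursors (purple ticks), with the 90th percentile of all genes dashed at 0.464. A total of 10 precursors lie right of that line, with Vip farthest at 1.63.

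Cholecystokinin (Cck), a satiety peptide that is also abundant in cortex, and Crhbp shared a library at the low end. Cck had 8.94, 8.92 and 9.71 CPM in SRC1 KO, against 4.61, 12 and 11.3 CPM in WT. Crhbp had 13.4, 11.8 and 10.4 CPM in SRC1 KO, against 7.13, 15.2 and 18.8 CPM in WT. In each, WT 1 stood below every other library, and WT 2 and WT 3 stood above every SRC1 KO library. A low WT 1 was not particular to these genes. It was also the lowest of all 6 libraries for Adcyap1, Apln and Npb. Over the 27 precursors, WT 1 was the lowest WT library for 12 and the highest for 11. Without WT 1 the log2 fold changes were -0.35 for Cck and -0.52 for Crhbp, with adjusted p of 0.308 and 0.174, against -0.018 ± 0.36 and -0.21 ± 0.37 with it. The list of cortical, hippocampal and amygdalar genes was also lowest in WT 1, at 93.0, 97.6 and 93.0 CPM in SRC1 KO and 64.3, 88.4 and 71.6 CPM in WT, and each SRC1 KO sum lay above each WT sum. The thalamic list was lowest in WT 1 too, at 463, 483 and 444 CPM in SRC1 KO and 343, 425 and 461 CPM in WT. Oligodendrocyte genes (3761 CPM) and the processing and granule genes described below (5715 CPM) also summed lowest in WT 1. The receptor, hypothalamic regional, striatal, suprachiasmatic and choroid plexus lists were highest in WT 1. Nkx2-1 and Lhx1 were lowest in WT 1, whereas Six6 was highest there. Single cortical genes differed in which library was lowest. Neurod6 was lowest in WT 1, with 107, 89 and 57 counts in SRC1 KO, against 4, 65 and 123 in WT. Slc17a7 was lowest in WT 3, with 52, 102 and 33 counts in SRC1 KO, against 30, 176 and 21 in WT. Tbr1, the 1 gene of the list past the threshold (log2 fold change 2.26, adjusted p 0.00584 in edgeR), was lowest in WT 2, with 251, 162 and 270 counts in SRC1 KO, against 47, 30 and 57 in WT. The share of neighbouring tissue in Cck and Crhbp was not tested. Exons of another gene cover 13.5% of Cck.

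In the corticotropin-releasing factor system Crhbp was accompanied by Ucn3, urocortin 3, a ligand of the type 2 receptor made in the perifornical area and the medial amygdala. Ucn3 had 0.667, 1.76 and 4.78 CPM in SRC1 KO, against 1.94, 1.06 and 1.32 CPM in WT. The value of SRC1 KO 3 rested on 218 counts and stood above all the others, and the log2 fold change of 0.74 ± 0.73 (adjusted p 0.778) was -0.25 without it.

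Among the RFamide peptides, named for their shared C-terminal end, the largest fold change of all 27 was that of Npvf, which encodes the gonadotropin-inhibitory peptides of the dorsomedial nucleus. Npvf (chromosome 6, 50627652 to 50631425, minus strand, GRCm39) had 2.36, 4.56 and 4.67 CPM in SRC1 KO, against 5.49, 7.08 and 15.0 CPM in WT. The groups did not overlap, and WT 3 alone was over 10 CPM. The log2 fold change was -1.25 ± 0.48 with an adjusted p of 0.370, and it was -0.7 without WT 3. Npff, neuropeptide FF, averaged 0.841 ± 0.233 CPM in SRC1 KO and 0.604 ± 0.155 CPM in WT (SD, n = 3 each), and its log2 fold change of 0.48 ± 0.30 did not pass (adjusted p 0.586). Qrfp, a peptide of the lateral hypothalamus, averaged 1.98 ± 0.250 CPM in SRC1 KO and 2.78 ± 1.54 CPM in WT, with WT 1 highest at 4.49 CPM. Exons of Abl1 cover 16.7% of Qrfp, and the counting did not use strand.

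The bombesin-like and neuromedin peptides had lower means in SRC1 KO. Nmb, neuromedin B, had 3.36, 3.58 and 3.20 CPM in SRC1 KO, against 4.63, 4.23 and 4.07 CPM in WT. Those groups lay apart, and the log2 fold change was -0.35 ± 0.14 (adjusted p 0.325). Grp, gastrin-releasing peptide, had 2.88, 3.48 and 3.44 CPM in SRC1 KO, against 3.11, 5.18 and 4.36 CPM in WT, with WT 1 inside the SRC1 KO range and a log2 fold change of -0.37 ± 0.20 (adjusted p 0.495). Neuromedin U (Nmu), which reduces feeding, had 13, 7 and 15 counts in SRC1 KO, against 28, 13 and 21 in WT. After scaling, its highest SRC1 KO library (0.329 CPM) lay just below its lowest WT library (0.343 CPM), and the log2 fold change was -0.90 ± 0.38 (adjusted p 0.342). Exons of another gene cover 6.73% of Nmu.

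The receptor side held the 1 gene past the threshold in these families. Of 46 receptor genes for the peptides described here, 45 were tested, Grpr fell and none rose, where 0.834% of all genes were called. Grpr, the receptor of gastrin-releasing peptide (chromosome X, 162296900 to 162332732, GRCm39), had 56, 51 and 63 counts in SRC1 KO, against 104, 96 and 108 in WT, or 1.33 ± 0.0477 CPM in SRC1 KO and 2.56 ± 0.0335 CPM in WT (SD, n = 3 each). The groups did not overlap, and the log2 fold change of -0.94 ± 0.17 (SE) had an adjusted p of 0.0421 in edgeR. That call was lost with each of the 6 libraries left out in turn, at adjusted p from 0.0669 to 0.174. It was also lost with the replicate block (0.0638), the stricter filter (0.0509) and library totals alone (0.0576), and at 0.399 without WT 1 and SRC1 KO 1 together. The call was kept in edgeR with RLE scaling (0.0437) and with no filter (0.00518). It was also kept in DESeq2 (0.00971) and in limma-voom, unweighted (0.0497) and weighted by sample quality (0.0286). The log2 fold change stayed between -0.97 and -0.91 in every alternative run.

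The next 4 receptors by p did not pass in edgeR after the filter on low counts. Nmur2, the receptor of neuromedins U and S in brain, had 1.5, 1.49 and 2.39 CPM in SRC1 KO, against 3.43, 2.59 and 3.37 CPM in WT, with a log2 fold change of -0.80 ± 0.23 (adjusted p 0.149). Exons of another gene cover 19% of Nmur2. Sstr1 and Sstr4, somatostatin receptors that also bind cortistatin, had log2 fold changes of -0.38 ± 0.097 and -0.54 ± 0.17 (adjusted p 0.111 and 0.181). Without WT 2 the adjusted p of Sstr1 was 0.0386. Ntsr2, a neurotensin receptor of astrocytes, had 161, 197 and 162 CPM in SRC1 KO, against 127, 137 and 142 CPM in WT, with a log2 fold change of 0.36 ± 0.089 (adjusted p 0.0966). With no filter Ntsr2 (adjusted p 0.00116), Sstr1 (0.0016) and Nmur2 (0.0153) passed in edgeR, where 2.65% of all genes were called. In DESeq2 Ntsr2 (0.00633) and Sstr1 (0.0231) passed, where 4.05% of all genes were called. Ntsr2 and Sstr1 lie on chromosome 12, as Ncoa1 does, while none of the 33 precursors is on that chromosome. Over the 45 receptors 15 had an unadjusted p under 0.05, or 33.3% against 13.0% of all genes, with 13 lower and 2 higher, and the median log2 fold change was -0.142. Of 16 processing and granule genes, 1 passed, where 0.834% of all genes were called. It was the granin Vgf at -0.40 ± 0.077 (adjusted p 0.0482 in edgeR). That call was lost with each of the 6 libraries left out in turn (0.0579 to 0.124) and without WT 1 and SRC1 KO 1 together (0.244). It was also lost with the stricter filter (0.053) and with unweighted limma-voom (0.0611). In edgeR it was kept with RLE scaling (0.049), library totals alone (0.0352), no filter (0.000181) and the replicate block (0.0344). The Vgf call was also kept in DESeq2 (0.000114) and in limma-voom with sample quality weights (0.0473). None of the other 15 had an unadjusted p under 0.05, so the share of the list at that level was 6.25%, against 13.0% of all genes.

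Peptides of vessels and fluid balance included the precursor with the lowest p. Edn1, endothelin-1 (chromosome 13, 42454952 to 42461466, plus strand, GRCm39), had 38, 48 and 41 counts in SRC1 KO, against 61, 86 and 73 in WT, or 0.905, 1.21 and 0.898 CPM in SRC1 KO against 1.5, 2.27 and 1.76 CPM in WT. All SRC1 KO libraries lay below all WT libraries. The log2 fold change was -0.87 ± 0.24 with a 95% interval of -1.41 to -0.34 and an adjusted p of 0.135. With no filter on low counts its adjusted p was 0.0388, where 2.65% of all genes were called. Endothelial genes, by comparison, summed to 188 to 213 CPM in SRC1 KO and 153 to 199 CPM in WT. Of those 8 genes 0 passed and 2 had an unadjusted p under 0.05, both with higher values in SRC1 KO. That was 25.0% of the endothelial list, against 13.0% of all genes.

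Apelin (Apln), the ligand of a receptor of vessels and magnocellular neurons, was the precursor with the lowest p among those with a positive fold change. It had 25.0, 25.9 and 22.3 CPM in SRC1 KO, against 16.6, 23.5 and 19.1 CPM in WT, with WT 2 above SRC1 KO 3. Its log2 fold change was 0.31 ± 0.12 (adjusted p 0.323). Edn3, endothelin-3, averaged 3.56 ± 0.621 CPM in SRC1 KO and 3.88 ± 0.389 CPM in WT. The natriuretic peptide precursors averaged 0.910 ± 0.326 CPM in SRC1 KO and 1.24 ± 0.400 CPM in WT for Nppa, and 1.83 ± 0.301 CPM in SRC1 KO and 1.72 ± 0.154 CPM in WT for Nppc (SD, n = 3 each). None of these 3 passed, with adjusted p from 0.654 to 0.911.

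The calcitonin genes and the rarest precursors close the list. Calca, which gives calcitonin and the alpha form of calcitonin gene-related peptide by splicing, averaged 4.38 ± 0.928 CPM in SRC1 KO and 4.87 ± 0.696 CPM in WT, and its neighbour on chromosome 7, Calcb, the beta form, 0.504 ± 0.240 CPM in SRC1 KO and 0.411 ± 0.148 CPM in WT (SD, n = 3 each). Neither passed, with adjusted p of 0.813 and 0.854, and the splice forms of Calca are not separated in the table. Npb, neuropeptide B, averaged 0.710 ± 0.127 CPM in SRC1 KO and 0.720 ± 0.168 CPM in WT. Rln3, relaxin-3, which is made mainly in the brainstem, had 8, 7 and 4 counts in SRC1 KO, against 4, 4 and 2 in WT. Cort, cortistatin, had 5, 8 and 5 counts in SRC1 KO, against 10, 9 and 4 in WT, and Npw had 5, 3 and 2 in SRC1 KO, against 3, 5 and 1 in WT. These 3 did not pass the filter on low counts and were not tested.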

How the data were processed

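RNA from 6 hypothalamus libraries was extracted with RNeasy and made into Illumina TruSeq libraries, per the labels' protocols. A single table was deposited by the authors, with unnormalised counts (read pairs per gene) from STAR 2.7.10a (per the submitters' processing notes) and featureCounts over exons of the mm39 RefSeq annotation, equal to GRCm39 (per the file headers). The featureCounts version is 2.0.0 in the header and 2.0.3 in those notes. No strand or multi-mapping option was set, so reads of overlapping genes on opposite strands were not told apart and reads of near-identical copies were not counted. Gene lengths in the deposited table, in bases, served for TPM, one of the other values computed here.

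The counts were tested by edgeR (4.0.16, R 4.3.3) after TMM scaling and filterByExpr (minimum count 10), using robust quasi-likelihood F-tests and Benjamini-Hochberg adjustment over all tested genes. SE was taken as the size of a log2 fold change over the root of its F. The table had 0 unused value columns and 0 rows without a gene name. Pairs of libraries of 1 group differed by more than sampling noise (chi-square per degree of freedom 8.87 to 18.9), so all 6 were kept. Single values in groups of 3 cannot reach an exact permutation p below 0.1, so no such tests were made. On simulated counts for this comparison over 19901 genes, 48 of 100 genes set to change by 0.5 on the log2 scale and 77 of 100 set to change by 1 were recovered, with 17 false calls. The genes set to change were drawn only from those at 1 CPM or more. Prok2, Nmu, Npff, Npb and Calcb averaged below that. The precursors also had a median within-group SD of 0.3, against 0.144 over all tested genes, so these recovery shares do not give the power for them.

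Alternatives were RLE scaling, library totals alone, no filter, a stricter filter (1 CPM or more in 3 libraries or more), leaving out each library, WT 1 and SRC1 KO 1 left out together, a replicate block, DESeq2 1.42.0, and limma-voom (3.58.1) with and without sample quality weights. Members and lists were chosen with earlier results of these data known. Values per library are given for the 10 members with the lowest p and the 6 with the highest TPM, and in both lists the genes past the threshold and, of the receptors, the next 4 by p are named. Vip, Nms, Cck, Crhbp, Ucn3 and the marker genes beside them were shown in full after their values were seen. Promoter windows matched 26 of the 33 members in RefSeq (GRCm38.p6).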

Additional observations from a re-analysis of the deposited data

How the results depend on the processing

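None of the 27 tested precursors was called higher in any of the 15 alternatives, and 1 was called lower in 1 of them, Edn1 with no filter on low counts. Of 400 alternative fold changes of the precursors, 374 kept their direction and their side of the threshold, 1 passed it and 25 turned sign, and 17 of the 27 never turned. None of those that turned was called in any fit. By setting, Cck was 0.077 with the replicate block, 0.11 with limma-voom and 0.23 with sample quality weights, Npb 0.002 with limma-voom, and Ucn3 -0.13, Crhbp 0.097 and Nppc -0.0097 with sample quality weights, while Qrfp was 0.14 without WT 1 and SRC1 KO 1 together. With 1 library left out, values ran from -0.35 to 0.21 for Cck, -0.17 to 0.02 for Adcyap1, -1.22 to 0.15 for Vip, -0.79 to 0.044 for Qrfp, -0.17 to 0.17 for Npb, -0.25 to 1.19 for Ucn3, -0.52 to 0.094 for Crhbp, -0.11 to 0.13 for Pnoc, -0.16 to 0.48 for Calcb and -0.043 to 0.20 for Nppc. The cause was not tested.

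The count of 169 changed genes over the whole table was 966 with no filter, 84 when the filter was stricter, 66 with library totals alone, 821 with DESeq2, 103 with limma-voom, 401 with sample quality weights and 29 without WT 1 and SRC1 KO 1 together. It ran from 36 (without SRC1 KO 1) to 260 (without SRC1 KO 2) with 1 library left out, and was 69 without WT 1. The count of 1 changed receptor was 0 with the stricter filter, library totals alone, the replicate block and without WT 1 and SRC1 KO 1 together, 4 with no filter and with DESeq2, and 0 to 1 with 1 library left out.

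Deviations from the group means correlated at -0.21, 0.35 and 0.22 across genes for libraries with the same replicate number, 1 to 3. SRC1 KO 1 went best with WT 3 (0.26), SRC1 KO 2 with WT 2 and SRC1 KO 3 with WT 3. With 3 libraries per group, these values cannot settle whether the replicate numbers pair the libraries. With the replicate block 155 genes and 0 precursors were called. Depth limits Npw, Rln3, Cort, Nmu, Prok2, Calcb, Npff and Npb, which had at most 44 counts in any library.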
